A study of Mus musculus with 8 samples.

Results

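Genes of bile acid synthesis and transport, 10 in all, were followed across liver RNA-seq libraries of obese, diabetic mice: Cyp7a1, Cyp8b1, Cyp27a1, Cyp7b1, Slc27a5, Baat, Abcb11, Slc10a1, Slco1b2 and Slco1a1. They were chosen by symbol for their known roles and not by a rule on their measured values, though earlier results of these data were known. All 10 were found among the 41388 counted features, and all 10 were among the 12270 genes expressed highly enough to test. The mice were db/db littermates, which carry no working leptin receptor, with C57B/6J given as their strain. They were randomised at 5 weeks of age and given, through a tail vein, an adenovirus that carried green fluorescent protein (AdGFP, 4 mice) or NAMPT (AdNAMPT, 4 mice), the enzyme that limits NAD salvage. All 8 mice were 10 weeks old when liver was taken, after overexpression for 4 to 5 weeks by the series' design text. The study's legend on adipose tissue of db/db mice given these viruses names a shorter time after delivery, of days. Its methods also name a time of days for adenovirus, so the sources differ on this interval. Every mouse received a virus, so neither an uninjected nor a lean group was compared here. The study's reporting notes give the db/db mice as males. The promoter of the virus is not given in the sources used here, and the genotype label of the AdGFP mice reads control.

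Bile acids are made from cholesterol in hepatocytes by a classical route that Cyp7a1 opens and an alternative route that runs through oxysterols. They are then linked to taurine or glycine, pumped into bile, and taken back up from portal blood by transporters of the basolateral membrane. In mouse liver Cyp7b1 and Slco1a1 are also known as genes expressed more in males than in females.

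No bile acid gene passed the test between the groups. In CPM (the reads of a gene scaled to the size of its library), with or without TMM scaling, every one of the 10 had overlapping groups, and with limma, after Benjamini-Hochberg adjustment over all tested genes, 0 of 10 passed an adjusted p of 0.05. Over all tested genes 0.277% passed that threshold and 4.79% had groups that did not overlap. None of the 10 reached an unadjusted p of 0.05 either, which 9.69% of all tested genes did. In a single library, AdNAMPT replicate 1, Slco1a1 and Cyp7b1 stood far above every other liver.

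The transferred gene gave little contrast in these libraries. Here and below, the 4 values of a group are given in the order of its replicate numbers. Nampt had levels of 102, 137, 153 and 142 CPM in the AdGFP livers, against 149, 120, 178 and 168 CPM in the AdNAMPT livers. The groups overlapped, with a log2 fold change of 0.08 (SE 0.15, limma adjusted p = 0.91), and AdNAMPT below refers to the libraries so labelled. The libraries held 12006713 to 19879814 counted reads, so that 3 reads corresponded to 0.151 to 0.250 CPM. The summed level of 8 hepatocyte markers was 92539 to 118082 CPM in AdGFP and 93293 to 117240.5 CPM in AdNAMPT. The summed level of 6 markers of cholangiocytes, the cells that line bile ducts, was 26.7 to 42.2 CPM and 29.6 to 44.4 CPM. Alb made up most of the first sum, at 76695 to 99419 CPM, and Spp1 most of the second, at 22.4 to 37.2 CPM. In homogenised liver, fewer cells of a type and less RNA per cell cannot be told apart.

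Because length differs between genes, levels were ordered per length, in reads scaled to exon length and library size (RPKM). In AdGFP livers Slc27a5 was highest at 566 ± 60.5 RPKM (SD, n = 4), followed by Slc10a1 at 514 ± 31.9, Slco1b2 at 397 ± 65.5 and Baat at 169 ± 13.6. Next came Cyp8b1 at 147.2 ± 23.8 RPKM, Cyp27a1 at 147.0 ± 12.6, Abcb11 at 115 ± 36.1 and Cyp7a1 at 50.5 ± 13.3. Cyp7b1 at 9.53 ± 1.33 RPKM and Slco1a1 at 2.88 ± 1.96 were lowest. Cyp8b1 exceeded Cyp27a1 in 4 of 8 libraries and Baat exceeded Cyp8b1 in 5 of 8, so the order within this middle group was not resolved. Slc27a5 exceeded Slc10a1 in 8 of 8 libraries although the AdGFP ranges of these genes overlapped. Cyp27a1 and Abcb11 also overlapped, with Cyp27a1 higher in 7 of 8.

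**Figure D1:**
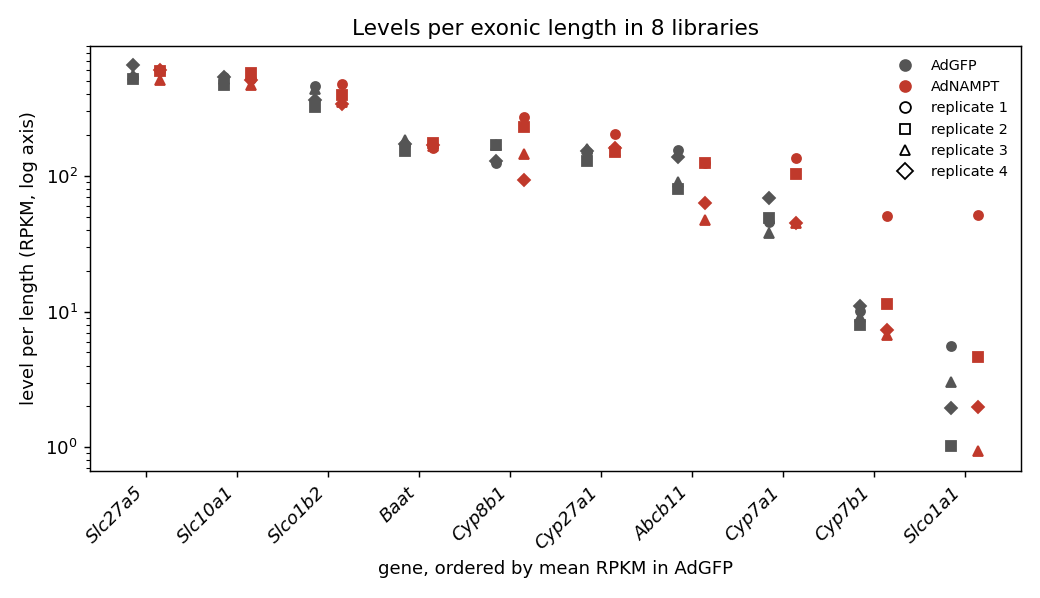
RPKM on a log axis for the 10 bile acid genes, ordered by their mean in AdGFP, with 1 point per library (grey AdGFP, red AdNAMPT, shape for replicate number). The levels span from about 565.7 RPKM for Slc27a5 to 2.88 RPKM for Slco1a1, and AdNAMPT replicate 1 stands above the other libraries for Cyp7b1 and Slco1a1.

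Sequence upstream of the transcription start is shown for Cyp8b1, Abcb11 and Slco1a1, since they were among the 5 genes whose levels varied most between livers and RefSeq windows were at hand for them. RefSeq promoter windows on GRCm38.p6 matched 6 of the 10 genes, and the 250 bases before the start are given 5′ to 3′ on the coding strand. All 3 genes lie on the minus strand. Capitals mark matches to the motifs described next.
Cyp8b1, chr9:121916306-121916555, minus strand: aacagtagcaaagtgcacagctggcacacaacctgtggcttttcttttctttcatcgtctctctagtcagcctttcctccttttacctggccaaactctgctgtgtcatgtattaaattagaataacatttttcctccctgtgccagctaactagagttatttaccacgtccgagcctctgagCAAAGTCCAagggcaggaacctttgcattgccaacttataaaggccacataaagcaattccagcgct
Abcb11, chr2:69342617-69342866, minus strand: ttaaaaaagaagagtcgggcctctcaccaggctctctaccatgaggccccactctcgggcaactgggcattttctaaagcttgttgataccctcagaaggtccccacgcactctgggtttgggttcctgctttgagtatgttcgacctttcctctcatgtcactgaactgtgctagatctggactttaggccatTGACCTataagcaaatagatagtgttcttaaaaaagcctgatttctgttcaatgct
Slco1a1, chr6:141946963-141947212, minus strand: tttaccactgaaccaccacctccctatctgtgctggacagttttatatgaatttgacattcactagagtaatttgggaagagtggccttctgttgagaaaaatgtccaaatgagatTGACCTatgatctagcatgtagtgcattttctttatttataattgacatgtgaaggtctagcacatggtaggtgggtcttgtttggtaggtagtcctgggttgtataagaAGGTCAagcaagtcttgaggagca

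Both strands of these windows were searched for a motif read by HNF4A (CAAAGTCCA), a hexamer read by nuclear receptors (AGGTCA) and a STAT5 motif (TTCNNNGAA). They were also searched for the inverted repeat read by FXR (which contains the hexamer) and an HNF6 motif (ATTGAT). The capitals in Cyp8b1, a gene known to be driven by HNF4A, are the HNF4A motif at 67 to 59 bases before the start. That motif occurred in 0.384% of all 32851 promoter windows. Abcb11, a known FXR target, held 1 hexamer, on the opposite strand, at 56 to 51 bases before the start. Slco1a1 held 2 hexamers, 1 per strand, at 134 to 129 and at 24 to 19 bases before the start. The hexamer occurred in 4607 of the 32851 windows. None of these 3 windows held the STAT5 motif, found in 7.02% of windows, or the HNF6 motif, found in 6.72%. None held the exact FXR repeat either. That repeat was found in only 2 windows of all, so its absence does not show that an FXR site is missing. In the Abcb11 window the marked hexamer ends a stretch that differs from the FXR repeat by 1 base. Inexact matches were not searched for. Of the bile acid genes whose windows are not shown, Slc10a1 and Slco1b2 held the STAT5 motif. A match is a run of letters and not a measured binding site.

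The classical route was most variable at its first step. Cyp7a1 (chr4:6265612-6275633, minus strand), the rate-limiting cholesterol hydroxylase of bile acid synthesis, had 192, 204, 158 and 289 CPM in the AdGFP livers. The AdNAMPT livers had 566, 431, 187 and 188 CPM. AdNAMPT replicates 1 and 2 lay above all AdGFP livers while replicates 3 and 4 lay within their range. The fitted log2 fold change (AdNAMPT over AdGFP) was 0.42, with SE 0.31, a 95% CI of -0.26 to 1.10 and a limma adjusted p of 0.71. It was -0.03 without AdNAMPT replicate 2 and 0.82 without AdNAMPT replicate 3, so its size rested on single livers.

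Cyp8b1 (chr9:121914356-121916305, minus strand, a single exon) encodes the sterol hydroxylase that commits intermediates to cholic acid. Its level was 242, 327.2, 327.3 and 252 CPM in AdGFP and 526, 446, 284 and 181 CPM in AdNAMPT. The AdNAMPT livers held both the highest and the lowest level of the 8, and AdNAMPT replicates 1 and 2 were again above all AdGFP livers. Between groups the difference was 0.14 on the log2 scale (SE 0.25, 95% CI -0.42 to 0.69, limma adjusted p = 0.91). Per length, Cyp8b1 exceeded Cyp7a1 by 1.87 to 4.42 times in AdGFP and by 1.99 to 3.24 times in AdNAMPT.

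Cyp27a1 (chr1:74713574-74737892, plus strand), the mitochondrial sterol hydroxylase that opens the alternative route and acts on the side chain in both, was steadier. The AdGFP livers had 326, 280.0, 343 and 329 CPM, and the AdNAMPT livers 443, 325, 329 and 349 CPM. AdNAMPT replicates 2 and 3 lay inside the AdGFP range and replicates 1 and 4 above it. Its log2 fold change was 0.0018 (SE 0.09, 95% CI -0.19 to 0.20, limma adjusted p = 0.997).

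Cyp7b1 (chr3:18071950-18243338, minus strand), the oxysterol hydroxylase of the alternative route, was low in 7 livers, at 14.5 to 24.7 CPM. AdGFP livers had 21.9, 17.2, 19.7 and 23.8 CPM, and AdNAMPT livers had 110.0, 24.7, 14.5 and 15.9 CPM. AdNAMPT replicate 1 was 5.60 times the median of the other 7 libraries. The mean was 20.6 ± 2.88 CPM (SD, n = 4) in AdGFP and 41.3 ± 46.1 CPM in AdNAMPT, or 18.3 CPM in AdNAMPT without replicate 1. In the fit, which gave that library a low weight, the log2 fold change was -0.0054 (SE 0.36, 95% CI -0.80 to 0.79), with a limma adjusted p of 0.998. It was 0.87 to 0.89 with edgeR and DESeq2 (lowest adjusted p = 0.74). Without AdNAMPT replicate 1 it was -0.37 with an unadjusted limma p of 0.049 and an adjusted p of 0.48, not past the threshold. Per length, Cyp7a1 exceeded Cyp7b1 by 4.18 to 6.29 times in AdGFP, while in AdNAMPT the ratio ran from 2.67 in replicate 1 to 9.08 in replicate 2.

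**Figure D2:**
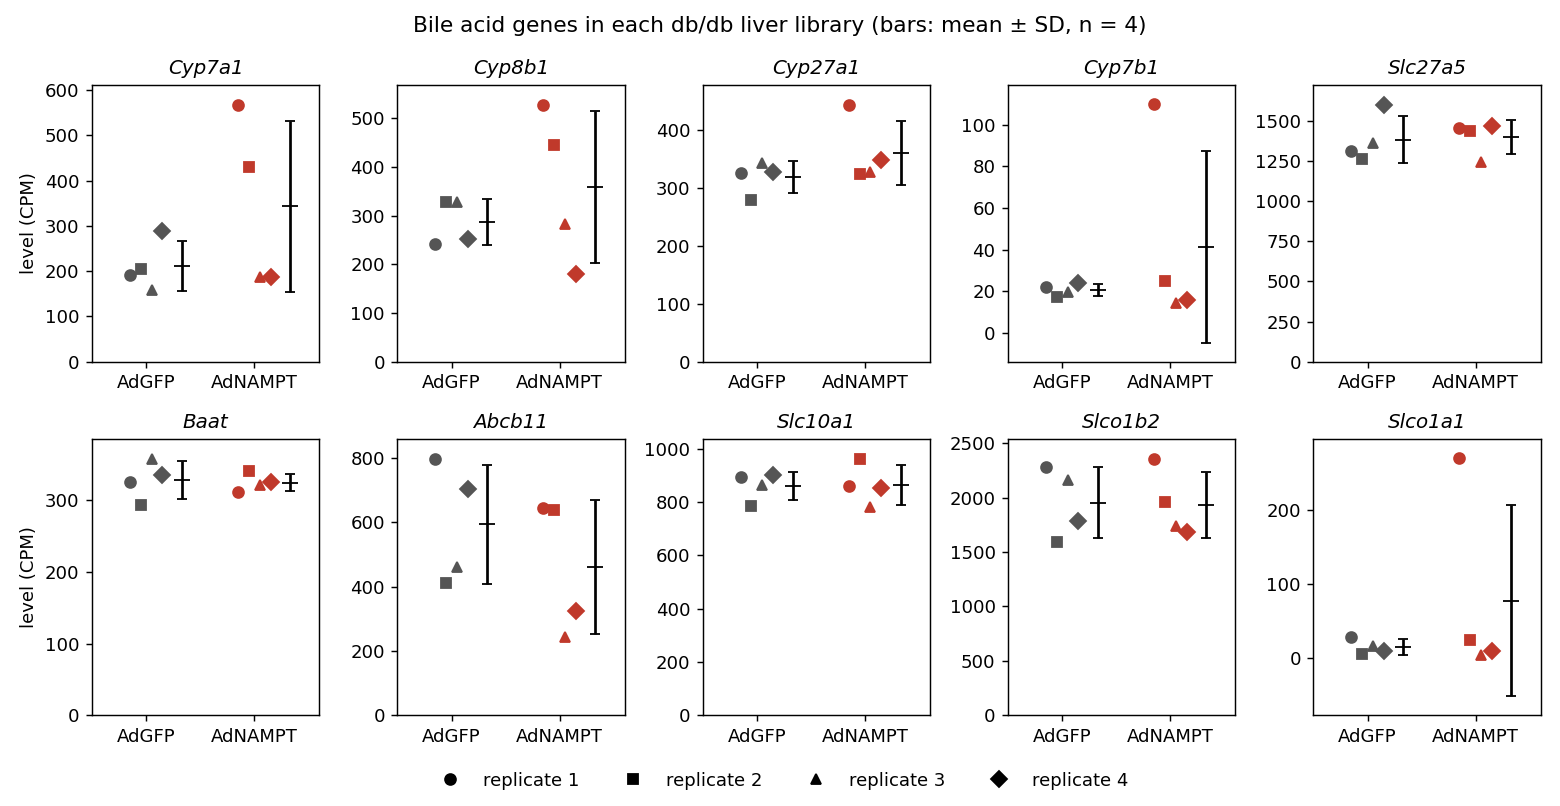
CPM of each bile acid gene in the 4 AdGFP (grey) and 4 AdNAMPT (red) livers, with shapes for replicate numbers and a black bar for the mean ± SD of each group. AdNAMPT replicate 1 is alone at 110.0 CPM for Cyp7b1 and 271 CPM for Slco1a1, and the groups overlap in every panel.

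The conjugation genes were among the least variable. Slc27a5 (chr7:12988346-12998192, minus strand), the ligase that attaches coenzyme A to bile acids, had 1312, 1262, 1362 and 1596 CPM in AdGFP livers and 1458, 1439, 1241 and 1467 CPM in AdNAMPT livers. Baat (chr4:49489422-49506557, minus strand), the transferase that joins bile acids to taurine or glycine, had 326, 294, 358 and 335 CPM in AdGFP livers and 311, 340.5, 321 and 326 CPM in AdNAMPT livers. Both genes overlapped between the groups. For Slc27a5 the log2 fold change was -0.09 (SE 0.10, 95% CI -0.31 to 0.13), with a limma adjusted p of 0.82. For Baat it was -0.10 (SE 0.07, 95% CI -0.27 to 0.06), with a limma adjusted p of 0.70. These estimates lie slightly below the ratio of the CPM means because the fit rescales libraries by TMM factors, which were 0.947 to 0.977 in AdGFP and 1.01 to 1.05 in AdNAMPT.

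Abcb11 (chr2:69238282-69342616, minus strand), the bile salt export pump of the canalicular membrane, had the lowest p of the 10 genes. AdGFP livers had 796, 411, 462 and 704 CPM, and AdNAMPT livers 643, 637, 243 and 326 CPM. AdNAMPT replicates 3 and 4 lay below all AdGFP livers, and replicates 1 and 2 lay inside the AdGFP range. Its log2 fold change was -0.57 (SE 0.31, 95% CI -1.25 to 0.11), with an unadjusted limma p of 0.091 and an adjusted p of 0.60. Without AdNAMPT replicate 1 it was -0.80 (unadjusted p = 0.022, limma adjusted p = 0.40). In that fit 10.5% of all tested genes had an unadjusted p under 0.05. The estimate was -1.06 without AdNAMPT replicate 2 (limma adjusted p = 0.24) and -0.15 without AdNAMPT replicate 3. Exons of Abcb11 overlap 136 bases of Gm13613 and 19 bases of Gm13614 on the opposite strand, and whether strand was used in counting is not stated, so reads there cannot be assigned to a strand.

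Of the uptake carriers, Slc10a1 and Slco1b2 were steady and Slco1a1 was not. Slc10a1 (chr12:80953185-80968079, minus strand), the sodium-dependent carrier that returns conjugated bile acids to hepatocytes, had 896, 785, 863 and 899.8 CPM in AdGFP livers and 859, 961.5, 779.7 and 853 CPM in AdNAMPT livers. Slco1b2 (chr6:141629518-141686646, plus strand), an organic anion carrier that does not need sodium, had 2282, 1591, 2164 and 1782 CPM in AdGFP livers and 2354, 1957, 1739 and 1679 CPM in AdNAMPT livers. Neither separated the groups. Slc10a1 had a log2 fold change of -0.08 (SE 0.09, 95% CI -0.28 to 0.11, limma adjusted p = 0.81). Slco1b2 had one of -0.16 (SE 0.13, 95% CI -0.44 to 0.11, limma adjusted p = 0.73).

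Slco1a1 (chr6:141907282-141946962, minus strand), another organic anion carrier of the hepatocyte membrane, was the most variable of the 10. Its level was 29.3, 5.37, 15.9 and 10.2 CPM in AdGFP and 271, 24.5, 4.93 and 10.4 CPM in AdNAMPT. AdNAMPT replicate 1, with 3256 reads of the gene, was 26.1 times the median of the other 7 libraries. AdNAMPT replicates 2 and 4 lay inside the AdGFP range and replicate 3 just below it. The fewest reads in a library were 76, in AdGFP replicate 2. The fitted difference was 0.09 in log2 units (SE 0.78; limma adjusted p = 0.99), and its 95% CI of -1.64 to 1.81 corresponds to folds from 0.321 to 3.51. The estimate depended on the tool, at 2.22 with edgeR's quasi-likelihood test (adjusted p = 0.64), 2.24 with its exact test (unadjusted p = 0.029, adjusted p = 0.65) and 2.25 with DESeq2, which returned no p for this gene. Without AdNAMPT replicate 1 it was -0.62 (limma adjusted p = 0.75). The ratio of Slco1b2 to Slco1a1 per length was 83.5 to 317 in AdGFP and 9.29 to 378 in AdNAMPT, with its lowest value in AdNAMPT replicate 1.

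**Figure D3:**
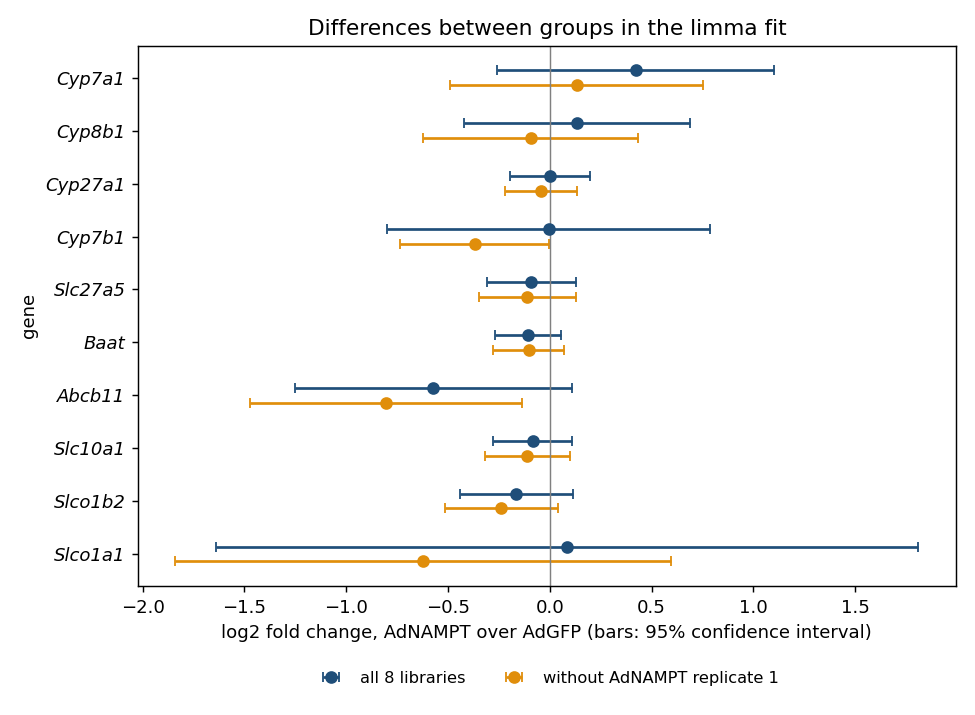
Log2 fold changes of AdNAMPT over AdGFP with 95% confidence intervals for the 10 bile acid genes, from all 8 libraries (blue) and without AdNAMPT replicate 1 (orange). All 10 blue intervals include 0, and Slco1a1 has the widest, from -1.64 to 1.81.

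Across the 10 genes, 4 estimates were above 0 and 6 below, with a median log2 fold change of -0.04 beside 0.0015 over all tested genes. The tally moved with single livers. Without AdNAMPT replicate 1, 9 of 10 estimates were below 0 and the median was -0.11, and without AdNAMPT replicate 2 it was again 9 of 10, with a median of -0.19. Without AdNAMPT replicate 3, 6 were above 0 and the median was 0.010, and without AdNAMPT replicate 4, 5 were above 0. At an unadjusted limma p under 0.05, 2 of the 10 were lower without AdNAMPT replicate 2. At that p, 1 was higher without AdNAMPT replicate 3 and 2 were higher without AdNAMPT replicate 4. Of all tested genes, 9.69% were under that p with all 8 libraries and 10.5% without AdNAMPT replicate 1. This share was not computed for the other fits. Of the 10, Abcb11 and Cyp7b1 had an unadjusted limma p under 0.05 without AdNAMPT replicate 1, and 0 passed the adjusted threshold that 0.305% of all genes tested in that fit passed.

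The spread between livers divided the genes. On TMM-scaled log2 CPM the range over the 8 libraries was 5.75 for Slco1a1, wider than in all but 7 of the tested genes. It was 2.92 for Cyp7b1, with 0.986% of tested genes wider, 1.83 for Abcb11 (3.69% wider), 1.73 for Cyp7a1 (4.39% wider) and 1.497 for Cyp8b1 (6.61% wider). The other 5, Slco1b2, Cyp27a1, Slc27a5, Slc10a1 and Baat, ranged over 0.31 to 0.51, with 54.7 to 84.9% of tested genes wider. Within AdGFP alone, 40.1% of tested genes had a larger SD than Cyp7b1 but 0.359% had a larger one than Slco1a1, so Slco1a1 also varied among control livers. On this scale AdNAMPT replicate 1 was highest for 5 of the 10 genes (Cyp7a1, Cyp8b1, Cyp27a1, Cyp7b1 and Slco1a1), and AdNAMPT replicate 3 was lowest for 5 (Cyp7b1, Slc27a5, Abcb11, Slc10a1 and Slco1a1).

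AdNAMPT replicate 1 also differed in genes that separate male from female mouse liver. It had the highest CPM of the 8 libraries for 9 of 9 male-biased genes, whose summed level was 2531 CPM there and 459 to 757 CPM in the other 7 libraries. It had the lowest CPM for 13 of 13 female-biased genes, with a sum of 226 CPM against 1293 to 1778 CPM. For instance Cyp2d9, a male-biased cytochrome P450, was at 1131 CPM there and at 83.7 to 268 CPM elsewhere, and Sult2a1, a female-biased sulfotransferase that acts on bile acids, was at 0.750 CPM there and at 16.3 to 36.6 CPM elsewhere. None of the genes of these lists was at 0 in all libraries. The quality weight that limma gave the library was the lowest of the 8, at 0.440. The part of these differences in the levels of Slco1a1, Cyp7b1 and the other bile acid genes was not tested.

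**Figure D4:**
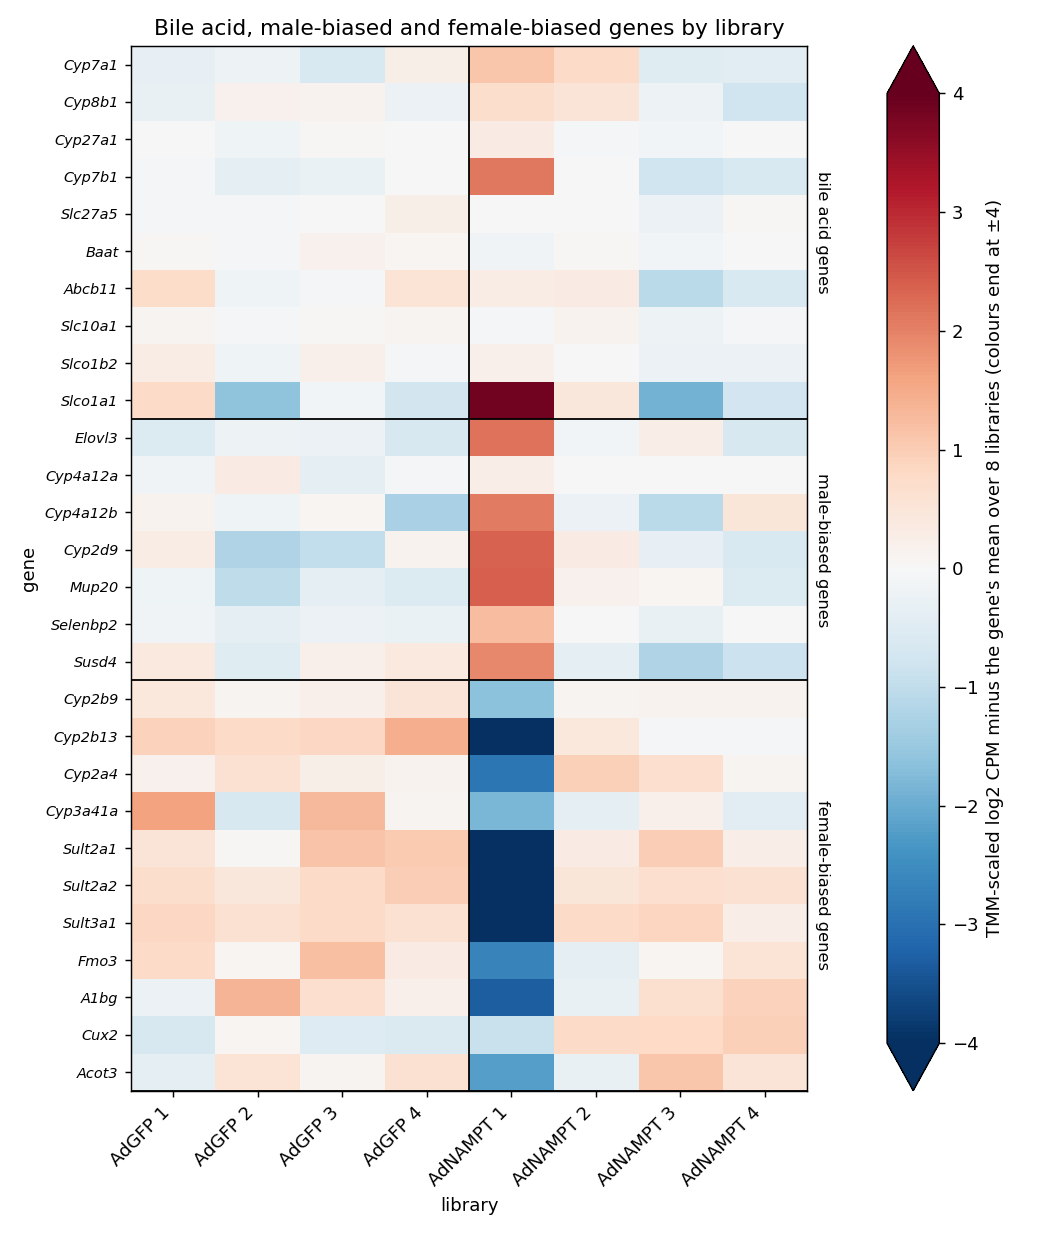
TMM-scaled log2 CPM of each gene minus its mean over the 8 libraries, for the 10 bile acid genes, the 7 of 9 male-biased and the 11 of 13 female-biased genes that were tested, with red above and blue below the mean and colours ending at 4. In the column of AdNAMPT replicate 1, Slco1a1, Cyp7b1 and the male-biased genes are above their means and the female-biased genes below.

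The genes whose pattern over the 8 libraries was most like that of the most variable bile acid genes were found by the root mean square difference of mean-centred log2 CPM. For Slco1a1 these were Mup7 (0.65), Mup11 (0.66) and E030018B13Rik (0.74). Mup7 and Mup11 encode major urinary proteins, pheromone carriers made in liver. For Cyp7b1 they were Mup3 (0.27), C6 (0.29), a complement component, and Mup10 (0.31). C6 had 17.4 to 29.7 CPM in AdGFP livers and 150.2, 24.2, 13.6 and 20.2 CPM in AdNAMPT livers. Its peak in AdNAMPT replicate 1 follows from its choice by likeness to Cyp7b1 and is no separate result. Unique counts of major urinary protein genes are uncertain, since 86.7% of the 50-base windows of Mup7, 77.8% of Mup11 and 76.5% of Mup10 also occur in other genes, beside 13.3% for Mup3. For the 10 bile acid genes this share was at most 1.68%, in Abcb11.

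The rest of the pathway was described with 5 lists of 50 genes, of which 45 could be tested. Of the 45, Cyp2b10 passed the adjusted threshold, so that 0 genes were higher and 1 lower. Over all tested genes 0.277% passed, 2 higher and 32 lower in AdNAMPT. The median log2 fold change of the 45 was -0.06. At an unadjusted limma p under 0.05, 4 of the 45 were higher and 9 lower in AdNAMPT, beside 4.65% higher and 5.04% lower of all tested genes. The summed level of 5 T cell markers was 1.49 to 1.91 CPM in AdGFP and 1.92 to 3.89 CPM in AdNAMPT, so the sums nearly met. Lck was higher in every AdNAMPT library, while Cd3e, Cd3g, Cd8a and Trac overlapped between the groups. The highest level of any marker was 1.53 CPM, of Cd8a in AdNAMPT replicate 4. The predicted RNA Gm42418 took 0.996 to 2.25% of reads in AdGFP and 0.200 to 0.233% in AdNAMPT. Ribosomal RNA features, which the fit left out, took 1.77 to 2.63% in AdGFP and 0.863 to 1.62% in AdNAMPT. Of the T cell markers, 0 of 5 were at 0 in all libraries, and Cd3e was at 0 in 3 AdGFP libraries. The part of these shifts in the results was not tested.

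Cyp2b10, a cytochrome P450 known as a target of the drug sensing receptor CAR, fell. AdGFP livers had 83.2, 74.0, 91.1 and 106 CPM of it and AdNAMPT livers 43.0, 44.9, 32.2 and 43.4 CPM, so that every AdNAMPT liver lay below every AdGFP liver. This was a log2 fold change of -1.24 (SE 0.13, limma adjusted p = 0.00093), and of -1.28 without AdNAMPT replicate 1 (limma adjusted p = 0.0016). Of its 50-base windows, 8.70% also occur in other genes. The other named genes of the detoxification list of 6 did not pass. Papss2, which makes the sulfate donor, had -0.42, Sult2a8, a bile acid sulfotransferase, -0.31, and Cyp3a11, a bile acid hydroxylase, -0.37 (limma adjusted p from 0.51 to 0.64).

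Among the 3 other uptake carriers, 0 passed. Slc22a7, an organic anion carrier, had 8.41, 5.15, 6.81 and 7.82 CPM in AdGFP livers and 6.25, 2.87, 3.92 and 3.77 CPM in AdNAMPT livers. AdNAMPT replicates 2 to 4 lay below the AdGFP range and replicate 1 lay inside it. Its log2 fold change was -1.06 (SE 0.19), with a limma adjusted p of 0.063, and it was -1.09 with an adjusted p of 0.046 without AdNAMPT replicate 1. The other carriers, Slco1a4 and Slco2b1, had log2 fold changes of -0.43 (limma adjusted p = 0.53) and -0.04 (0.94).

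Of 16 regulators, 14 were tested and 0 passed, with 3 higher and 1 lower at an unadjusted limma p under 0.05, beside the 9.69% of all tested genes under that p in either direction. For 2 of the 14 the groups did not overlap, as for 4.79% of all tested genes. Onecut1, also called HNF6, had 3.35, 4.38, 5.38 and 4.90 CPM in AdGFP livers and 24.2, 6.42, 8.75 and 10.4 CPM in AdNAMPT livers. Its groups did not overlap, with a log2 fold change of 0.92 (SE 0.29, limma adjusted p = 0.38). Foxa2, a pioneer factor of liver, had 0.47 (SE 0.13, limma adjusted p = 0.34). Nr0b2, the corepressor SHP that is known to dampen Cyp7a1, had -0.33 (SE 0.11, limma adjusted p = 0.41) and ranged from 38.3 to 52.7 CPM in AdGFP and from 36.8 to 52.6 CPM in AdNAMPT.

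The lists of other synthesis and export genes gave no call. Of 14 synthesis genes 13 were tested, with 1 higher and 3 lower at an unadjusted limma p under 0.05, where 4.65% and 5.04% of all tested genes stood. They were Cyp46a1, a cholesterol hydroxylase best known from brain (log2 fold change 0.94, 0.717 to 1.03 CPM in AdGFP and 0.750 to 2.67 CPM in AdNAMPT), Akr1c6 (-0.42), Akr1d1 (-0.23), the reductase of the steroid ring, and Amacr (-0.19), a racemase of the side chain. Their limma adjusted p ran from 0.43 to 0.50. Of 11 export genes 9 were tested, with 0 higher and 2 lower at that unadjusted p. These were Abcg5 and Abcg8, which together form the cholesterol exporter of the canalicular membrane, both at a log2 fold change of -0.21 (limma adjusted p = 0.51 and 0.49). Abcc3, a basolateral exporter, had 0.15 (limma adjusted p = 0.64), and Atp8b1, a lipid flippase of the canalicular membrane, had -0.12 (0.69).

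**Figure D5:**
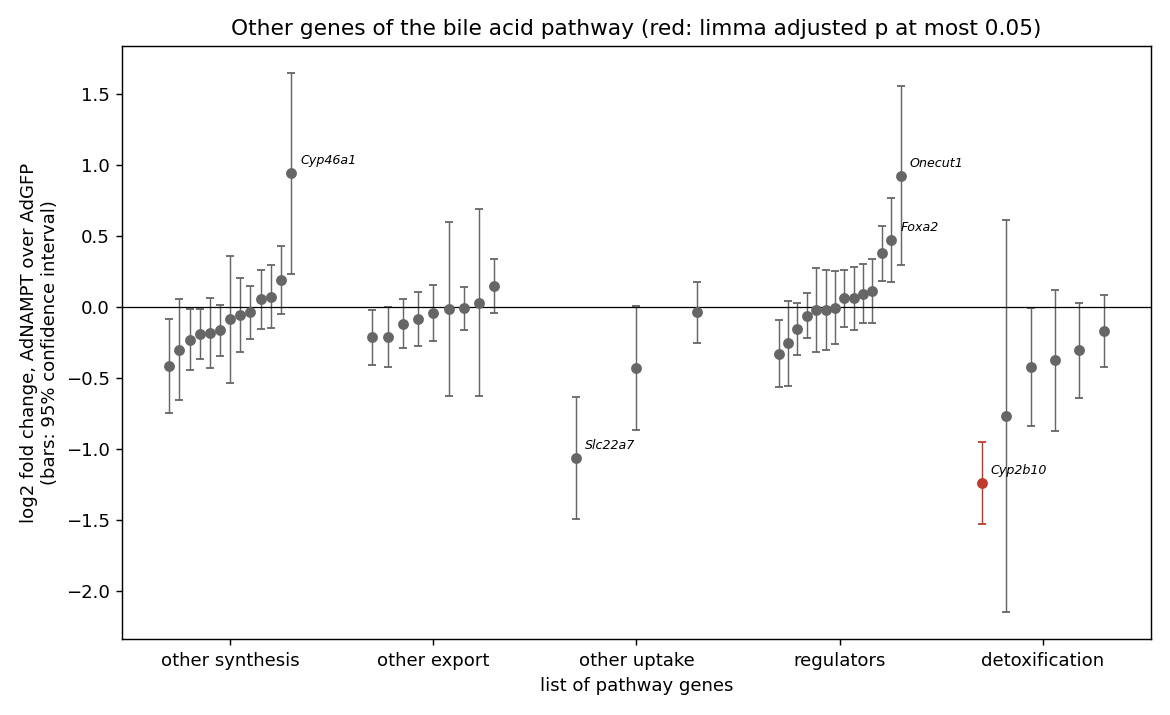
Log2 fold changes of AdNAMPT over AdGFP with 95% confidence intervals for the 45 tested genes of the 5 other pathway lists, ordered within each list. Cyp2b10, at -1.24, is the single gene past a limma adjusted p of 0.05 (red).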

How the data were processed

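Total RNA of liver homogenate was sequenced as single reads. The labels name Ribo-Zero depletion and the study's methods poly-A selection. The authors aligned reads to GRCm38 with STAR 2.4.0b and deposited counts of uniquely aligned, unambiguous reads per Ensembl gene from featureCounts 1.4.5. The deposited CPM are each count scaled to its library total, and the deposited RPKM are those CPM per kilobase of exon. Use of strand is not stated. Symbols came from GENCODE M21 on the same assembly.

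Following the study's methods, 355 ribosomal RNA features were left out, and genes above 1 CPM in at least 3 libraries (2 where a library was left out) were fitted with limma 3.58.1 (voomWithQualityWeights, TMM from edgeR 4.0.16, group as the only term) in R 4.3.3. An adjusted p of at most 0.05 over 12270 genes was a call. Log2 CPM used a prior count of 2. The fit was tested on simulated data. Replicates of 1 group differed by more than sampling noise (chi-square per degree of freedom 12.2 to 90.1), so all 8 libraries were kept apart. Each library was taken as 1 mouse from its numbered title. The labels state no more on this, so p-values measure the spread between these libraries.

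The 10 genes, the lists and the tests were chosen with earlier results of these data known. Besides the 10 genes and Nampt, the text names the 4 genes of each pathway list with the smallest p, any past the threshold, and the 3 genes most like each of the 2 members with the widest range. Of these, 1 gene is not reported here. Alternatives were edgeR's quasi-likelihood and exact tests, DESeq2 1.42.0, voom without weights, other scalings and filters, a replicate block and leaving out each library.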

Additional observations from a re-analysis of the deposited data

Results flagged for a closer look

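Of 60 sets of 4 libraries checked (30 genes in both groups), 7 had a library whose gap to its nearest neighbour relative to the whole range exceeded Dixon's 95% critical value for 4 samples, where chance alone would give about 3. Of the bile acid genes, Cyp7b1 at 110.0 CPM and Slco1a1 at 271 CPM were set apart in AdNAMPT replicate 1, with nearest values of 24.7 and 24.5 CPM. Slc27a5 was set apart downwards in AdNAMPT replicate 3, at 1241 CPM with the nearest at 1439 CPM. Of the other pathway genes, Atp8b1 at 40.4 CPM (nearest 44.1) and Cyp2b10 at 32.2 CPM (nearest 43.0) were lowest in AdNAMPT replicate 3. Abcg8 was lowest in AdNAMPT replicate 2, at 79.6 CPM (nearest 83.2). Papss2 was highest in AdGFP replicate 4, at 423 CPM (nearest 305).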

How the results depend on the processing

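Under the 17 alternatives 0 of the 10 bile acid genes passed (9 with DESeq2, which returned no p for Slco1a1), with a lowest adjusted p of 0.24 for Abcb11 without AdNAMPT replicate 2. Of their 170 recomputed log2 fold changes 24 had the opposite sign, none past the threshold, and 4 genes (Slc27a5, Baat, Abcb11 and Slco1b2) never changed sign. Cyp7b1, close to 0 in the main test, was 0.89 with DESeq2, 0.89 with edgeR's exact test, 0.87 with its quasi-likelihood test, 0.28 without sample weights, 0.18 without a filter, 0.0047 with a mean count of at least 10 and 0.089 with library size only, and the cause was not tested. Slco1a1, 0.09 in the main test, was 2.22 to 2.25 with edgeR and DESeq2, 0.63 without sample weights and 0.53 without a filter. Library size only, which moved the median of all genes to 0.086, gave 0.0013 for Slc10a1 and 0.044 for Slco2b1.

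Leaving out 1 library at a time gave -0.032 to 0.82 for Cyp7a1, -0.19 to 0.50 for Cyp8b1, -0.043 to 0.032 for Cyp27a1, -0.37 to 0.32 for Cyp7b1, -0.20 to 0.0094 for Slc10a1, -0.68 to 0.97 for Slco1a1, -0.12 to 0.038 for Slco2b1 and -0.079 to 0.27 for Nampt. The count of other pathway genes called was 1, but 2 with edgeR's exact test, 3 with DESeq2 and 1 to 2 with a library left out (2 without AdGFP replicate 2 and without AdNAMPT replicate 1), and the added genes were Slc22a7 and Onecut1. Slc22a7 passed with DESeq2 (adjusted p = 0.049) and without either of those libraries (0.039 and 0.046), and Onecut1 with edgeR's exact test (0.046) and DESeq2 (0.015). Over all genes 34 passed, 65 with edgeR's exact test and 75 with DESeq2 (0.530 and 0.612% of genes tested).

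Same-numbered libraries of the groups deviated together with r of -0.05 to 0.23, so the numbers were not taken as a pairing. With the replicate number as a block 0 bile acid genes and 1 other pathway gene passed, 41 genes passed in all, Cyp7b1 was 0.23, Slco1a1 was 0.86 and Cyp8b1 was -0.024.

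With 4 libraries in each group, the intervals of Slco1a1 and Cyp7b1 stayed wide. The fewest reads of any of the 10 genes in a library were 76.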

Other observations

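Of the pathway lists, 5 genes were too low to test, and they are named here after their values were seen. Fgf15, the ileal hormone that represses bile acid synthesis, had no read in any library, where 3 reads would be 0.151 to 0.250 CPM. Ch25h, Slc51a and Gpbar1 stayed at or below 0.219 CPM in every library. Slc51b, a subunit of the basolateral exporter, had 0.615 to 0.988 CPM in AdGFP livers and 0.916, 0.205, 2.67 and 2.71 CPM in the AdNAMPT livers, and the groups overlapped. Per length, the ratio of Slc27a5 to Baat was among the steadiest of the paired steps, at 3.02 to 3.78 in AdGFP and 3.07 to 3.72 in AdNAMPT.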
